A study of Mus musculus with 8 samples.

Results

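Interferon-stimulated genes are the transcripts that cells raise when an interferon binds its receptor. A set of 42 was described here, named by symbol: the IFIT, oligoadenylate synthetase and MX families, guanylate-binding and immunity-related GTPases, the ISG15 system, transcription factors of the pathway, nucleic acid sensors and single effectors. All 42 symbols were found through their Ensembl IDs in GENCODE M21 (GRCm38, also called mm10) among the 20781 genes of the deposited count table, and all 42 passed the filter on low counts. RNA had been sequenced in bulk from fibro-adipogenic progenitors (FAPs), the mesenchymal cells between muscle fibres that can turn into adipocytes or fibroblasts. Both groups were cells of wild-type male C57BL/6 mice (C57BL/6J in another label) from uninjured tibialis anterior, gastrocnemius and quadriceps. Cultures of 48 h received either vehicle or melatonin (dose not given in the sources used here) for a further 24 h, and each group has 4 libraries. No cytokine or virus is named as an addition in either group, and the labels do not say how many animals gave each culture.

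Type I interferons bind the IFNAR receptor, whose kinases JAK1 and TYK2 activate STAT2. A complex that holds STAT2 and IRF9 then binds an element called the interferon-stimulated response element (ISRE) near its target genes. Type II interferon instead acts through gamma-activated sites (GAS), and IRF1 is among the first targets. Many of the products block viral replication, and several of them (IRF7, STAT2, IRF9, the RNA sensors) belong to the same pathway that induces them.

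Library totals ran from 35584931 to 52401153 counts. Levels are given as CPM (counts scaled to library size by TMM). Each fold change compares melatonin with vehicle on the log2 scale and is followed by its standard error. Melatonin replicate 4, the library with the fewest counts, stood apart from the other melatonin libraries over all genes, with a score of -54.4 on the second principal component against 18.5 to 25.5. Summed levels of 8 macrophage markers (Ptprc, Adgre1, Csf1r, Cd68, Itgam, Lyz2, C1qa and Mrc1) were 466 to 712 CPM with vehicle, 549 to 593 CPM in melatonin replicates 1 to 3 and 316 CPM in melatonin replicate 4, which was the lowest melatonin library for all 8. Their median relative to the vehicle mean was 0.00, 0.02, -0.04 and -1.0 in melatonin replicates 1 to 4 (log2). Lyz2 made up most of the sum, and Ptprc and Csf1r were below every vehicle library in all 4 melatonin libraries. Of those 8 genes Csf1r fell and C1qa and Mrc1 rose, and each call was lost when certain single libraries were left out (adjusted p = 0.054 to 0.12). The 5 listed markers of T, B and NK cells were not found by symbol in the count table. Of 6 FAP and fibroblast markers Ly6a, Dcn and Col1a1 fell, and all 3 adipocyte markers (Adipoq, Plin1 and Fabp4) rose. Over all tested genes 18.5% fell and 18.1% rose. The adipocyte markers summed to 100.4 to 106 CPM with vehicle and 632 to 798 CPM with melatonin. Melatonin replicate 4 had the lowest melatonin sum of these and of the FAP and fibroblast markers. It was also lowest for the sum of Myod1 and Myog (6.09 CPM, 14.3 to 22.1 CPM in replicates 1 to 3). The endothelial markers (Pecam1, Cdh5, Kdr and Tie1) summed to 12.2 CPM there and to 15.1 to 19.5 CPM in replicates 1 to 3. It was the lowest melatonin library for 2 of those 4. Mitochondrial genes took 1.05% to 1.3% of counts with vehicle and 2.09% to 2.44% with melatonin. The share of ribosomal protein transcripts was 5.84% in melatonin replicate 4, above the 4.07% to 4.65% of the other 7 libraries. The part of these differences in the results was not tested. The FAP markers Pdgfra (570 ± 52.2 and 465 ± 74.0 CPM, vehicle first, SD, n = 4) and Ly6a (336 ± 32.8 and 224 ± 21.8 CPM) were abundant in both groups. In bulk RNA, fewer cells of a type and less RNA per cell cannot be told apart.

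Every member had a lower mean in the melatonin group, and the size of the difference varied from gene to gene and from library to library. Of the 42 members, 19 fell at an edgeR adjusted p under 0.05, where 18.5% of all 16565 tested genes did. None rose, with edgeR or with any of the 17 other settings, and 0 members had an unadjusted p under 0.05 in the upward direction. Fold changes ran from -2.52 for Oas3 to -0.34 for Ifi27, with a median of -1.16 (0.01 over all tested genes). The count was 11 without melatonin replicate 3 and 29 with DESeq2, and the median was -0.71 without vehicle replicate 3 and melatonin replicate 4. All 4 nucleic acid sensors fell, as did both membrane factors and the 3 classical oligoadenylate synthetases. None of the 4 IFIT genes of the set did, with 0 of 4 at an adjusted p under 0.05, 0 at an unadjusted p under 0.05 and 0 of 4 by DESeq2. All 4 melatonin libraries lay below all 4 vehicle libraries for 23 members, against 19.2% of all tested genes. These were the 19 that passed and Irf7, Usp18, Rtp4 and Adar. In the other 19 members the groups overlapped.

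**Figure D1:**
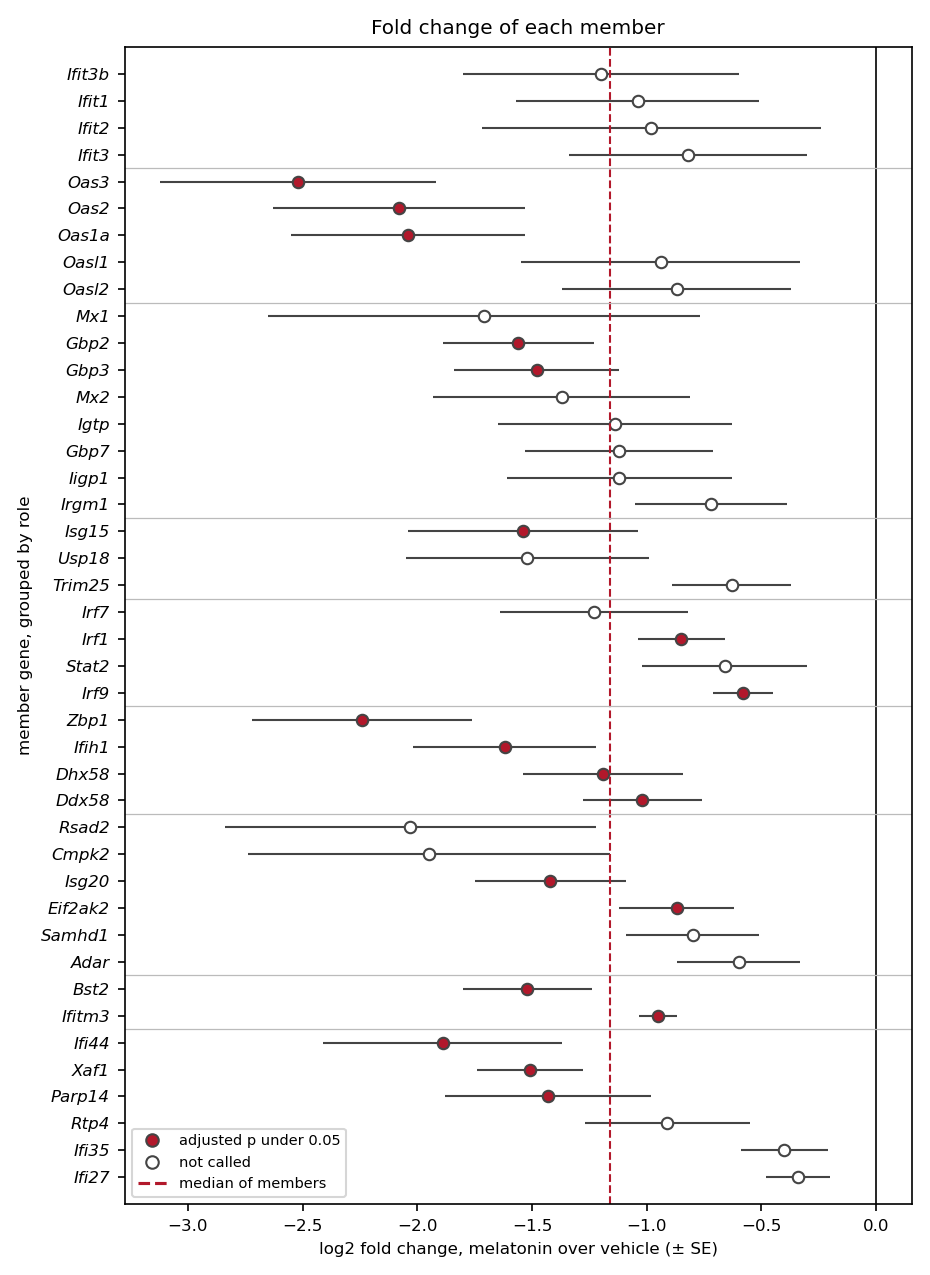
Log2 fold change of each of the 42 members (x axis, melatonin over vehicle, bars are standard errors), grouped by role on the y axis. All points lie below 0, filled points passed at an adjusted p under 0.05 (19 members), and the dashed line is the members' median of -1.16.

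The spread between libraries was large and shared. Vehicle replicate 3 was the highest vehicle library for 40 of 42 members (26.1% of all tested genes), and melatonin replicate 4 the lowest melatonin library for 38 (36.5% of all tested genes). Melatonin replicate 1 was the highest melatonin library for 38 members (19.4% of all tested genes). Melatonin replicates 3 and 4 were the lowest pair of their group for 40 members, against 14.9% of all tested genes. Relative to the vehicle mean, the median member stood at -0.51 in melatonin replicate 1, -0.81 in replicate 2, -1.52 in replicate 3 and -2.50 in replicate 4 on the log2 scale. The same medians over all tested genes were 0.00 to 0.02. In the vehicle group the medians were -0.04, -0.23, 0.48 and -0.17 for replicates 1 to 4. Melatonin replicate 3 was below every vehicle library for all 42 members, replicate 4 for 41, replicate 2 for 37 and replicate 1 for 24. The shares over all tested genes were 32.9%, 37.5%, 33.6% and 32.7%, in the same order. The part of the lower macrophage and other cell type markers of melatonin replicate 4 in these values was not tested.

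**Figure D2:**
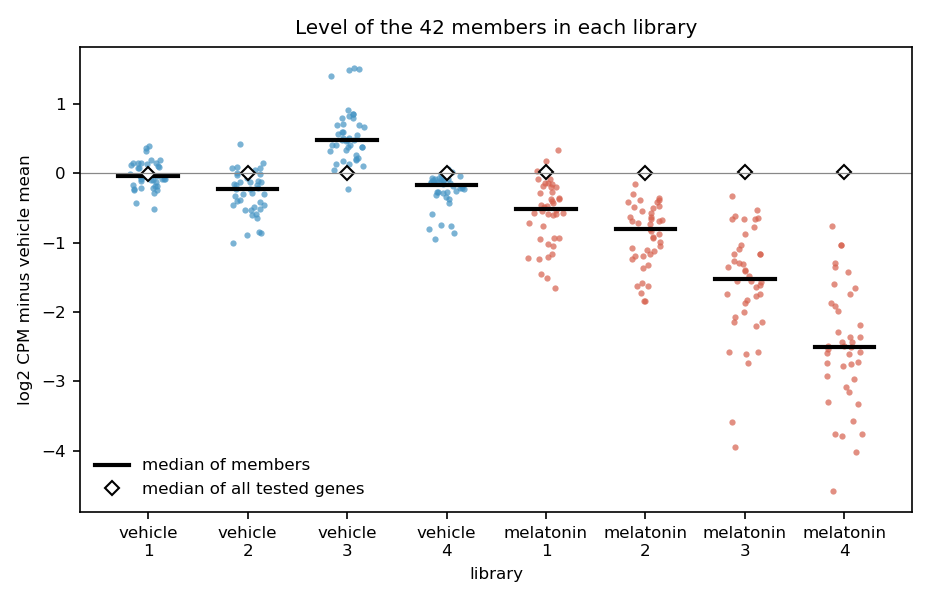
Log2 CPM of each member minus its vehicle mean (y axis), in each of the 8 libraries (x axis). Each dot is a member, bars are the medians of the 42 members (0.48 in vehicle replicate 3, -2.50 in melatonin replicate 4) and diamonds the medians of all tested genes, which lie at or near 0.

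The median within-group SD of the members was 0.36 with vehicle and 0.88 with melatonin (log2 CPM), where all tested genes had medians of 0.16 and 0.20. It was larger with melatonin for 40 members (63.8% of all tested genes), all but Ifitm3 and Samhd1. Without melatonin replicate 4 the members' median SD with melatonin was 0.47, and without vehicle replicate 3 that with vehicle was 0.18. Without those 2 libraries together, 17 members fell (18.3% of all tested genes), 16 of them among the 19.

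**Figure D3:**
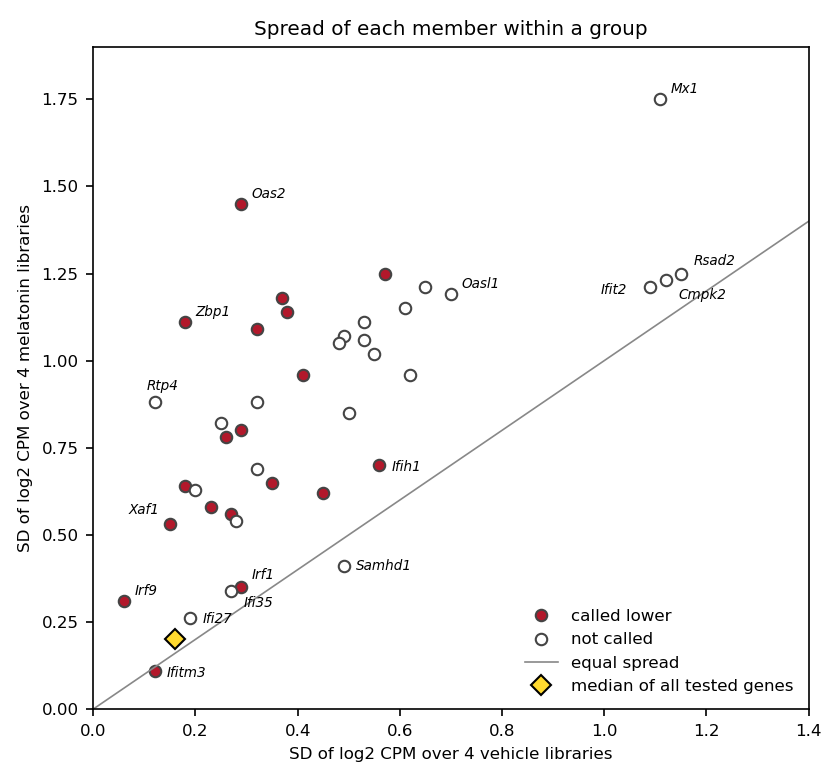
SD of log2 CPM over the 4 melatonin libraries (y axis) against that over the 4 vehicle libraries (x axis), 1 point per member, filled where the member passed the test. All but 2 members lie above the line of equal spread, and the diamond is the median of all tested genes (0.16 and 0.20).

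The promoters of the members were read from the RefSeq table of windows that begin 250 bases before the start site and end 50 bases after it (GRCm38.p6). It holds 32 of the 42 members, without Mx1, Mx2, Oas2, Usp18, Dhx58, Rtp4, Iigp1, Ifi27, Parp14 and Zbp1. The ISRE core, spelled as GAAA, any 2 bases and GAAA again, was searched on both strands and was in a window of 18 of the 32 members (56.2%) and of 3.99% of all 27025 genes. A wider form, the core followed directly by CT, was found for 11 members (34.4%) and 0.303% of all genes. The GAS pattern TTCNNNGAA, which reads the same on both strands, was found for 12 members (37.5%) and 9.55% of all genes. A match to letters is not a measured binding site. Of the 18 members with the core 10 fell (median fold change -1.17), and of the 14 without it 5 fell (median -0.91), with no test of that difference. Among tested genes outside the set, 23 of 39 with the wider form fell (59.0%, median -0.97), against 18.7% of 11488 without it (median 0.04). The list of other interferon-induced genes used below holds 14 of those 39, and of the 25 outside it 14 fell (56.0%).

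For the members that fell with the smallest p among those with the core, the windows are given 5′ to 3′ on the gene's strand, with core matches in capitals. Ifitm3 has its matches just after the start site, Bst2 and Gbp2 before it.
Ifitm3, chr7:141010695-141010994, minus strand: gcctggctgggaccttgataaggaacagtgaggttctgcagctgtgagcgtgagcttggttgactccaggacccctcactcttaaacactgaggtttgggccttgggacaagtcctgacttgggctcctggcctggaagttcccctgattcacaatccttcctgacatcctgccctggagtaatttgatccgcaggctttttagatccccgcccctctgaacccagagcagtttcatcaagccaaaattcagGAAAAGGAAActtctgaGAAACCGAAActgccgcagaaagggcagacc
Bst2, chr8:71537423-71537722, minus strand: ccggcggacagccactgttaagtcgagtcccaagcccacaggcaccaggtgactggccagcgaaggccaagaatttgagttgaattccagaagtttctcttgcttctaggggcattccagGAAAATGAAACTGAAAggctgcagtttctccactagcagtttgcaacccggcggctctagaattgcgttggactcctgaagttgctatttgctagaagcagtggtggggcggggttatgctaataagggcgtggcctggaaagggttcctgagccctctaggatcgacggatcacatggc
Gbp2, chr3:142620413-142620712, plus strand: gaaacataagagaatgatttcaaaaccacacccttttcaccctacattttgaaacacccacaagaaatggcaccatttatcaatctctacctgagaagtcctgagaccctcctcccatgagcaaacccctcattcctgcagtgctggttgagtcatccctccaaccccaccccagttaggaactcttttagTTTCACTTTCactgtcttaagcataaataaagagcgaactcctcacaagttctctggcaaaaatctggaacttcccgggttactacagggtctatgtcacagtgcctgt

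The next windows are those of the members with the core that did not pass and had the largest spread with melatonin. Rsad2, Ifit3b and Ifit1 carry their matches upstream of the start site, and Ifit1 and Ifit3b hold a pair of them each.
Rsad2, chr12:26456403-26456702, minus strand: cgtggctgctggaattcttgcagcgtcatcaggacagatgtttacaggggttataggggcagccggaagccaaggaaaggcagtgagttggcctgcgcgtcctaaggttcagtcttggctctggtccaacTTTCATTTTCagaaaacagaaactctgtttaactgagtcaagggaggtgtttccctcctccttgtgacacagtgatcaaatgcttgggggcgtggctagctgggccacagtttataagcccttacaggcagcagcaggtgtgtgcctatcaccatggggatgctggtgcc
Ifit3b, chr19:34607707-34608006, plus strand: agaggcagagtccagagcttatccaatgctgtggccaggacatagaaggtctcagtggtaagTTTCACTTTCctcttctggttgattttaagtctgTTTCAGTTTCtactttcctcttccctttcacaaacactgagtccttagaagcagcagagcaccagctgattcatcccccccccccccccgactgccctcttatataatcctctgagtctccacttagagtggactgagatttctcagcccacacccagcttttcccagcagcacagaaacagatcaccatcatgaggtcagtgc
Ifit1, chr19:34640639-34640938, plus strand: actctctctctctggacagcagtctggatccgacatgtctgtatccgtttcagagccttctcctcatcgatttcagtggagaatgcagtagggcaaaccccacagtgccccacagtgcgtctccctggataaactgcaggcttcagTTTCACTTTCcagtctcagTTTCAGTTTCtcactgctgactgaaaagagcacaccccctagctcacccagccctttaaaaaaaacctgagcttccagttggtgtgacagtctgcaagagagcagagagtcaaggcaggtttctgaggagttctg

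The proteins of IFIT genes bind foreign RNA ends and block translation. The 4 IFIT members lie close together on chromosome 19 (34550694 to 34650009 from the start of Ifit2 to the end of Ifit1, all on the plus strand). Ifit1 stood at 391, 250.03, 561 and 279 CPM in vehicle replicates 1 to 4 and at 309.6, 226, 132 and 53.1 CPM in melatonin replicates 1 to 4. Its highest melatonin library exceeded 2 of the vehicle libraries, and its fold change of -1.04 ± 0.53 did not pass (adjusted p = 0.17). Ifit2 was at 117, 61.7, 317 and 66.0 CPM with vehicle and at 140.2, 79.8, 45.1 and 19.7 CPM with melatonin (-0.98 ± 0.74, adjusted p = 0.35). Melatonin replicates 1 and 2 were above vehicle replicates 2 and 4, and without vehicle replicate 3 and melatonin replicate 4 the sign turned (0.11, adjusted p = 0.89).

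Ifit3 was the most abundant of the 4 (606, 394, 923 and 471 CPM, then 581, 437, 229 and 111 CPM), with a fold change of -0.82 ± 0.52 (adjusted p = 0.27). Ifit3b, its close copy, was at 208, 117, 324 and 141 CPM with vehicle and at 151, 114, 54.6 and 23.3 CPM with melatonin (-1.20 ± 0.60, adjusted p = 0.16). Stretches of 100 bases in Ifit3 transcripts recurred in Ifit3b for 31.7% of Ifit3 and 27.4% of Ifit3b, so reads may have been split between them. In all 4 genes vehicle replicate 3 was the highest and melatonin replicate 4 the lowest library. Outside the set, the related Ifit1bl2 fell (-1.59 ± 0.54, adjusted p = 0.046), with overlap between groups. It lost the call when certain single libraries were left out (adjusted p = 0.06 to 0.13). Ifit1bl1 did not pass (-1.94 ± 0.69, adjusted p = 0.064).

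The oligoadenylate synthetases make the second messenger that activates RNase L on sensing double-stranded RNA. The 3 classical members fell 4.10- to 5.72-fold. Oas1a was at 41.8, 57.0, 78.8 and 53.6 CPM with vehicle and at 23.9, 18.7, 9.44 and 4.10 CPM with melatonin (-2.04 ± 0.51, adjusted p = 0.018), and 40.9% of its transcript sequence in stretches of 100 bases is shared with Oas1g. Oas2 went from 22.4, 25.4, 35.4 and 24.8 CPM to 9.72, 8.63, 5.95 and 1.07 CPM (-2.08 ± 0.55, adjusted p = 0.021). The groups did not overlap in either gene, and the highest melatonin library was 9.06 times the lowest in Oas2.

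Oas3, the least abundant member per exon length, was at 8.73, 8.29, 18.8 and 8.502 CPM with vehicle and at 3.25, 3.10, 0.635 and 0.724 CPM with melatonin (-2.52 ± 0.60, adjusted p = 0.013). This was the largest difference of the set, and without vehicle replicate 3 and melatonin replicate 4 it was -1.88 (adjusted p = 0.055). Oasl1, a brake on IRF7 translation, and Oasl2 lie elsewhere on chromosome 5 and did not pass. Oasl1 was at 26.1, 27.7, 48.7 and 14.7 CPM with vehicle and at 30.3, 17.02, 9.13 and 4.40 CPM with melatonin (-0.94 ± 0.61). Oasl2 was at 204, 208, 133 and 103 CPM and then at 136, 127, 64.7 and 27.5 CPM (-0.87 ± 0.50), and it is 1 of the 2 members in which vehicle replicate 3 was not the highest vehicle library.

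Among the GTPases, 2 of 8 fell, both guanylate-binding proteins of a cluster on chromosome 3. Gbp2, which attacks the membranes of pathogen vacuoles, was at 477, 438, 732 and 451 CPM with vehicle and at 247, 228, 140.4 and 94.8 CPM with melatonin (-1.56 ± 0.33, adjusted p = 0.0072). Gbp3 was at 152, 122, 197 and 141 CPM and then at 74.3, 73.1, 49.2 and 22.6 CPM (-1.48 ± 0.36, adjusted p = 0.015). Both kept the call without any 1 library. Gbp7, their neighbour, was at 38.9, 23.8, 54.6 and 33.6 CPM and then at 24.03, 22.4, 16.1 and 6.63 CPM (-1.12 ± 0.41, adjusted p = 0.069), and only vehicle replicate 2 and melatonin replicate 1 overlapped. A pseudogene, Gm43802, lies over 11.3% of its exon sequence.

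The MX genes encode dynamin-like antiviral GTPases. In C57BL/6 mice Mx1 is known to carry a deletion that removes its function, and GENCODE M21 lists Mx2 as a polymorphic pseudogene. The levels of these transcripts therefore do not stand for activity. Mx1 was at 53.3, 20.6, 110.1 and 24.4 CPM with vehicle and at 39.2, 17.5, 3.40 and 3.46 CPM with melatonin (-1.71 ± 0.94, adjusted p = 0.20). It had the largest spread of all members with melatonin, an SD of 1.75 (log2). Mx2 was at 30.5, 19.3, 48.3 and 20.7 CPM and then at 20.5, 13.9, 8.23 and 3.22 CPM (-1.37 ± 0.56, adjusted p = 0.098). In both genes melatonin replicate 1 lay inside the vehicle range.

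The immunity-related GTPases, which act at vacuoles of intracellular parasites and respond strongly to type II interferon, did not pass. Iigp1 was at 169, 108, 237 and 137 CPM with vehicle and at 119, 97.2, 60.9 and 23.1 CPM with melatonin (-1.12 ± 0.49, adjusted p = 0.12). Igtp was at 98.2, 78.2, 187 and 92.9 CPM and then at 88.2, 64.6, 36.6 and 17.5 CPM (-1.14 ± 0.51, adjusted p = 0.13). Irgm1, a regulator of the others, was at 185, 164, 262 and 163 CPM and then at 170.1, 149, 89.1 and 60.1 CPM (-0.72 ± 0.33, adjusted p = 0.13). The overlap came from melatonin replicate 1 in all 3 genes.

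The ISG15 system attaches the ubiquitin-like protein ISG15 to other proteins. Isg15 itself fell from 271, 291, 443 and 291 CPM to 187, 150.3, 71.4 and 35.6 CPM (-1.54 ± 0.50, adjusted p = 0.046). Its adjusted p was the largest of the 19, and the call was lost without vehicle replicate 1, 2, 3 or 4 or melatonin replicate 2 or 3 (adjusted p = 0.063 to 0.11). Usp18, the protease that removes ISG15 and also dampens IFNAR signalling, was at 127, 112, 278 and 119 CPM and then at 99.3, 64.7, 36.7 and 21.4 CPM (-1.52 ± 0.53, adjusted p = 0.059), with no overlap. Trim25, the ubiquitin ligase that acts with RIG-I, was at 125, 105, 168 and 125 CPM and then at 117, 90.99, 81.3 and 48.0 CPM (-0.63 ± 0.26, adjusted p = 0.093).

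Of the transcription factors, Irf1 and Irf9 fell and Irf7 and Stat2 did not pass. Irf9, the DNA-binding subunit of the type I complex, had the smallest spread with vehicle of all members (84.6, 89.9, 92.8 and 90.5 CPM). With melatonin it was at 69.8, 67.2, 58.5 and 43.6 CPM (-0.58 ± 0.13, adjusted p = 0.0061). Irf1 went from 74.5, 68.6, 99.7 and 62.4 CPM to 50.5, 42.4, 47.3 and 29.3 CPM (-0.85 ± 0.19, adjusted p = 0.0076). Irf7, the factor that amplifies interferon production, was at 119, 124, 189 and 122 CPM and then at 97.4, 71.97, 43.6 and 24.1 CPM (-1.23 ± 0.41, adjusted p = 0.054). Stat2 was at 146, 125, 190.4 and 149.9 CPM and then at 138, 114, 96.3 and 38.0 CPM (-0.66 ± 0.36, adjusted p = 0.19).

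All 4 nucleic acid sensors fell, with no overlap between groups. Zbp1, a sensor of Z-form nucleic acid that can start necroptosis, was at 107, 112, 137 and 103 CPM with vehicle and at 39.8, 31.6, 18.6 and 7.001 CPM with melatonin (-2.24 ± 0.48, adjusted p = 0.0090). Its vehicle libraries were close together (SD of 0.18 in log2 units), whereas those with melatonin spread 5.69-fold. Ifih1, which encodes the long double-stranded RNA sensor MDA5, went from 91.6, 54.5, 134 and 68.5 CPM to 42.8, 32.8, 24.2 and 13.8 CPM (-1.62 ± 0.40, adjusted p = 0.016). Ddx58, which encodes RIG-I, the sensor of RNA with a triphosphate end, went from 215, 193, 272 and 197 CPM to 144, 132, 96.6 and 59.3 CPM (-1.02 ± 0.26, adjusted p = 0.018). Dhx58, encoding LGP2, a regulator of the pair, went from 82.3, 74.4, 113 and 83.6 CPM to 57.4, 47.6, 33.1 and 16.9 CPM (-1.19 ± 0.35, adjusted p = 0.032). The calls of Zbp1 and Ifih1 held without any 1 library.

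**Figure D4:**
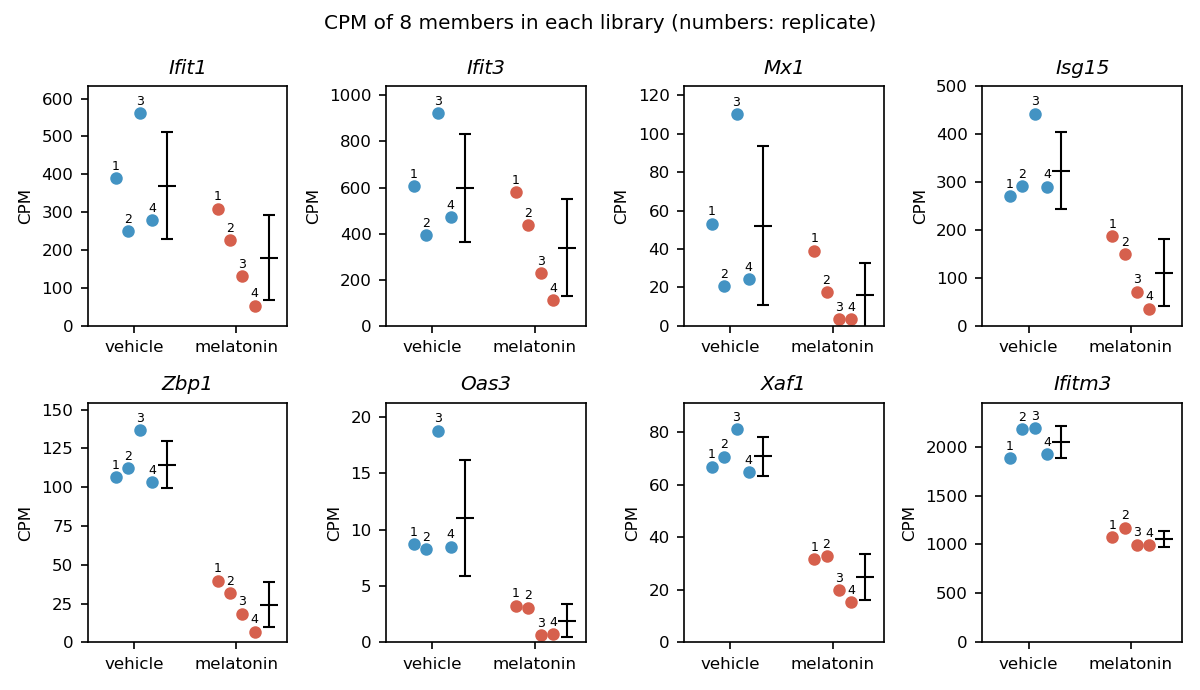
CPM (y axis, linear from 0) of 8 members in each library, vehicle in blue and melatonin in red, with replicate numbers and the mean ± SD beside each group (the lower bar of Mx1 with melatonin ends at the axis). Ifit1, Ifit3 and Mx1 overlap between groups, whereas Isg15, Zbp1, Oas3, Xaf1 and Ifitm3 do not, and Ifitm3 varies least within a group.

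Among enzymes that act on RNA, nucleotides or translation, Isg20 and Eif2ak2 fell. Isg20, an exonuclease of RNA, went from 15.5, 23.4, 33.1 and 20.5 CPM to 11.7, 11.7, 5.26 and 5.90 CPM (-1.42 ± 0.33, adjusted p = 0.011). Eif2ak2, which encodes the kinase PKR that stops translation on double-stranded RNA, went from 75.9, 52.5, 79.8 and 68.1 CPM to 46.6, 44.1, 39.9 and 20.3 CPM (-0.87 ± 0.25, adjusted p = 0.028). Adar, the adenosine deaminase of double-stranded RNA, was at 130.4, 105.1, 134 and 102.6 CPM and then at 102.5, 89.3, 81.2 and 38.7 CPM (-0.60 ± 0.27, adjusted p = 0.13). An exon of Chrnb2 on the other strand overlaps 16.8% of the exon sequence of Adar. Samhd1, which hydrolyses deoxynucleotides, was at 147, 113, 244 and 126 CPM and then at 117, 101.2, 81.7 and 61.02 CPM (-0.80 ± 0.29, adjusted p = 0.061).

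Rsad2 and Cmpk2 encode viperin and a mitochondrial nucleotide kinase that supplies it, and their genes stand 12751 bases apart on chromosome 12 in opposite directions. Rsad2 was at 104, 45.8, 234 and 43.5 CPM with vehicle and at 60.4, 23.3, 12.5 and 8.23 CPM with melatonin. Cmpk2 was at 84.0, 39.6, 209 and 41.9 CPM and then at 53.3, 23.8, 12.2 and 7.46 CPM. The order of the melatonin libraries was the same in both, and vehicle replicate 3 exceeded the next vehicle library in both. Their fold changes of -2.03 ± 0.81 and -1.95 ± 0.79 were among the 6 largest of the set and did not pass (adjusted p = 0.093 and 0.097), the vehicle libraries themselves differing 5.38- and 5.26-fold.

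Both membrane factors fell. Ifitm3, which blocks fusion of viruses in endosomes, was the most abundant member per exon length and went from 1884, 2181, 2188 and 1924 CPM to 1072, 1170.1, 999 and 992 CPM. It fell by 0.95 ± 0.082 on the log2 scale (adjusted p = 2e-05), and its SD with melatonin (0.11) was the smallest of the set. Melatonin replicate 4 was within 1.18-fold of the highest melatonin library there. Bst2, encoding tetherin, which holds budding virions at the cell surface, went from 501, 646, 639 and 551.5 CPM to 253, 255, 208 and 99.9 CPM (-1.52 ± 0.28, adjusted p = 0.0034). Both calls held under all 17 other settings.

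Of the remaining members, Xaf1, Ifi44 and Parp14 fell. Xaf1, which counters the apoptosis inhibitor XIAP, went from 66.8, 70.7, 81.3 and 64.7 CPM to 31.6, 32.7, 19.8 and 15.4 CPM (-1.51 ± 0.23, adjusted p = 0.0011). Ifi44 went from 80.4, 81.3, 134 and 78.3 CPM to 38.8, 35.3, 19.8 and 6.55 CPM (-1.89 ± 0.52, adjusted p = 0.025). Parp14, an ADP-ribosyltransferase, went from 201, 138, 272 and 173 CPM to 115, 86.9, 64.2 and 25.0 CPM (-1.43 ± 0.45, adjusted p = 0.042).

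Rtp4, a chaperone of membrane receptors, was steady with vehicle (33.7, 35.4, 40.6 and 34.0 CPM) and spread with melatonin (27.6, 25.5, 15.9 and 7.30 CPM). Another transcript, Gm45338, lies over 13.9% of its exon sequence. Its fold change of -0.91 ± 0.36 did not pass (adjusted p = 0.088). Ifi35 was at 84.1, 87.6, 125 and 86.3 CPM and then at 89.1, 84.7, 59.97 and 55.8 CPM (-0.40 ± 0.19, adjusted p = 0.13), and an antisense gene, Gm11626, overlaps 16.8% of its exon sequence. Ifi27 ran against the order of the melatonin libraries, at 203, 261, 271 and 257 CPM with vehicle and at 171, 169, 196 and 248 CPM with melatonin (-0.34 ± 0.14, adjusted p = 0.080). It is the only member in which melatonin replicate 4 was the highest melatonin library, and without that library it fell by 0.46 (adjusted p = 0.0046).

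**Figure D5:**
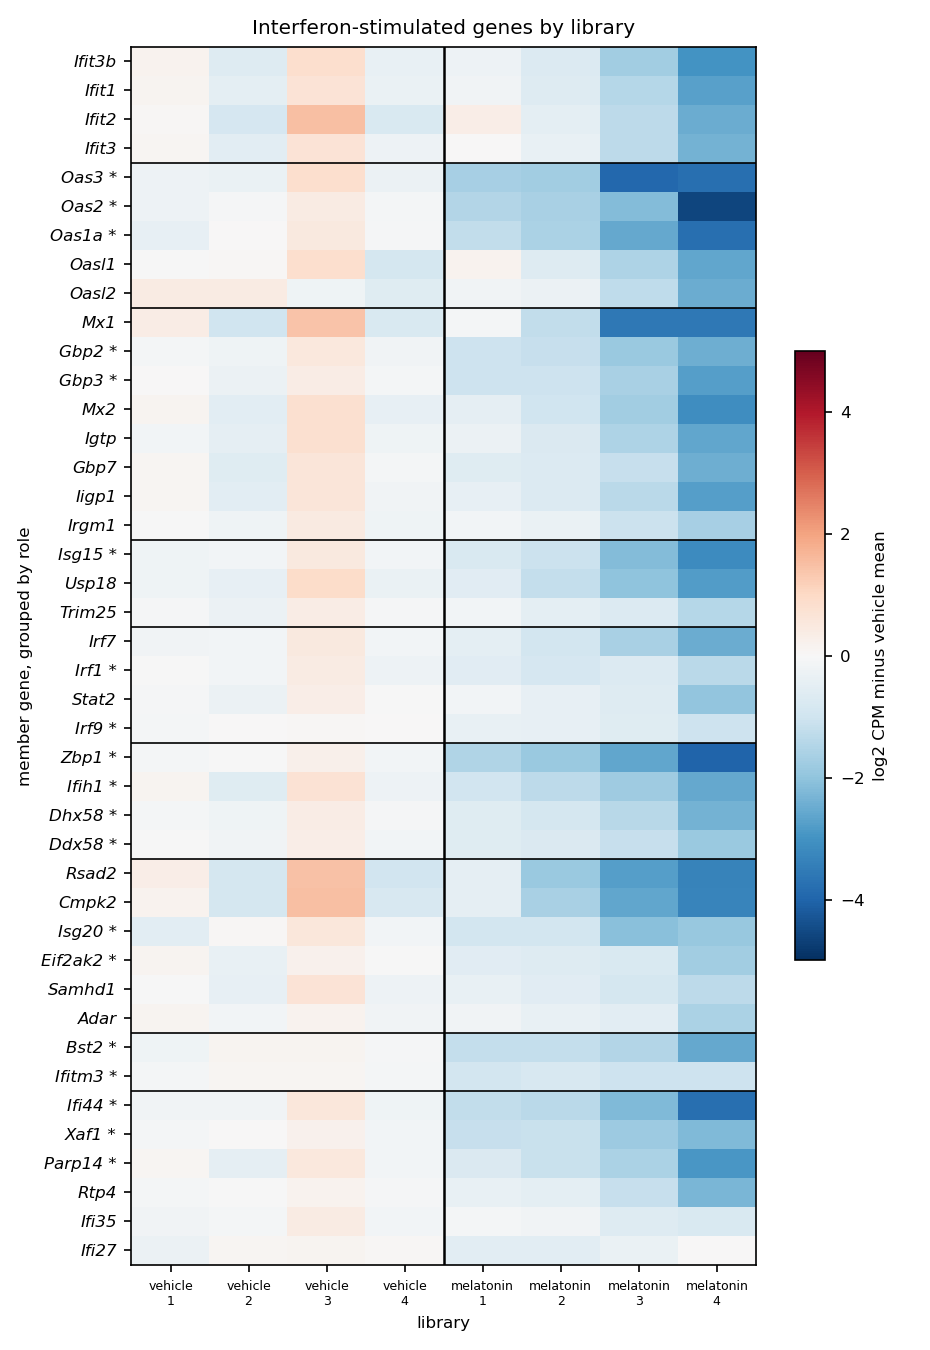
Heat map of log2 CPM minus the vehicle mean (colour) for the 42 members (rows, grouped by role, asterisks mark the 19 that passed) in the 8 libraries (columns). Vehicle replicate 3 is reddest in 40 rows and melatonin replicate 4 is the bluest melatonin column in 38.

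Per kilobase of exon, the vehicle means ran from 1.57 CPM (Oas3) to 3015 CPM (Ifitm3), with Bst2 (647), Isg15 (428), Ifit3 (343), Gbp2 (208), Ifi27 (169) and Ifit1 (139) next in order. With melatonin Ifitm3 stayed first (1561) and Oas3 last (0.273), and Bst2 (226), Ifit3 (195), Isg15 (147) and Ifi27 (134) followed Ifitm3. Neighbours in these orders were not compared by a test.

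Without melatonin replicate 3 only 11 members fell: Oas3, Irf1, Irf9, Ifih1, Bst2, Xaf1, Gbp2, Gbp3, Zbp1, Ifitm3 and Isg20. These 11 also fell without any other 1 library, and 9 of them (all but Oas3 and Isg20) under all 17 other settings. The 8 members that lost the call without melatonin replicate 3 were Isg15, Oas1a, Oas2, Ifi44, Ddx58, Dhx58, Parp14 and Eif2ak2 (adjusted p = 0.051 to 0.11). Without vehicle replicate 3, Isg15, Oas2, Ifi44, Dhx58, Parp14 and Eif2ak2 were not called (adjusted p = 0.050 to 0.098). Dhx58, Parp14 and Eif2ak2 also lost the call without vehicle replicate 1 or 4, and Dhx58 and Parp14 without vehicle replicate 2. Parp14 lost it without melatonin replicate 2 as well. DESeq2 called 29 members lower, among them the same 19, where it called 20.3% of all tested genes lower. The 10 that no setting called were Ifit1, Ifit2, Ifit3, Ifit3b, Mx1, Oasl1, Stat2, Iigp1, Igtp and Ifi35.

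Upstream of the members, transcripts of interferons themselves were rare. Ifnb1, which encodes interferon beta, had 38, 12, 32 and 13 counts in vehicle replicates 1 to 4 and 12, 0, 0 and 4 counts with melatonin. It passed the filter on low counts only through the vehicle group, so no test is given for it. Ifna4 had 23, 2, 8 and 6 counts with vehicle and 0 in all melatonin libraries, where a count of 0 allows up to 0.0560 to 0.0805 CPM, and it was not tested. The other 7 listed interferon genes were not found by symbol in the count table, whose genes all had at least 11 counts in total. Both genes had more counts in vehicle replicate 1 than in replicate 3, unlike most members.

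Of 6 interferon receptor genes Ifnar2, Ifngr1, Ifngr2 and Il10rb fell and 0 rose (0 at an unadjusted p under 0.05). Over all tested genes 18.5% fell and 18.1% rose. The median of the 6 was -0.45, beside -1.16 for the members. The scarce Ifnlr1 is in that median, but it passed the filter on low counts only through the vehicle group (0.642 ± 0.0430 and 0.276 ± 0.140 CPM). No test is given for it. Ifnar2 went from 188 ± 8.70 to 119 ± 12.5 CPM (-0.66 ± 0.081), Ifngr1 from 117 ± 5.93 to 87.5 ± 5.16 CPM (-0.41 ± 0.065) and Ifngr2 by -0.42 ± 0.059. Il10rb (-0.48 ± 0.075) fell as well, and Ifnar1 did not pass (-0.21 ± 0.075, adjusted p = 0.051). The summed level of the receptors was 630.4, 653, 683 and 640 CPM in vehicle replicates 1 to 4 and 472, 513, 459 and 480.4 CPM in melatonin replicates 1 to 4. The vehicle sum was highest in replicate 3, which was the highest vehicle library for 3 of the 6 genes. Melatonin replicate 4 did not have the lowest sum of its group and was the lowest melatonin library for 2 of the 6.

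In the list of signal relay genes and brakes, 5 of 12 fell and 1 rose, where 18.5% of all tested genes fell and 18.1% rose. Jak2, which serves the type II receptor together with Jak1, went from 169 ± 19.1 to 47.6 ± 6.11 CPM (-1.82 ± 0.11, adjusted p = 3.2e-06). The feedback inhibitors Socs1 (-1.36 ± 0.32) and Socs3 (-0.87 ± 0.077) and the phosphatases Ptpn2 (-0.40 ± 0.078) and Ptpn11 (-0.31 ± 0.080) fell, and the SUMO ligase Pias4 rose (0.21 ± 0.067). Socs1 lost the call without melatonin replicate 4 (adjusted p = 0.052), and Pias4 without vehicle replicate 1, 3 or 4 or melatonin replicate 1 or 2 (adjusted p = 0.064 to 0.094). Jak1 (-0.06 ± 0.070) and the type I kinase Tyk2 (0.01 ± 0.11) did not pass.

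Of 22 tested genes for sensing of nucleic acid outside the set, 7 fell and 3 rose, where 18.5% of all tested genes fell and 18.1% rose. The adaptor of cytosolic DNA sensing Tmem173, also called STING (-0.89 ± 0.088), the endosomal receptors Tlr3 (-1.39 ± 0.35) and Tlr7 (-1.11 ± 0.26), the kinases Ikbke (-0.74 ± 0.10) and Tbk1 (-0.37 ± 0.085), Trim56 (-0.61 ± 0.18) and Irf5 (-0.65 ± 0.18) fell. The adaptors Mavs (0.62 ± 0.058) and Ticam1 (0.29 ± 0.069) and the factor Irf3 (0.40 ± 0.093) rose. Tlr3 lost the call without melatonin replicate 4 (adjusted p = 0.057), and Trim56 without vehicle replicate 1 or 3 or melatonin replicate 2 (adjusted p = 0.052 to 0.061). Among 7 tested interferon-regulatory factors and partners outside the set, which also include Irf3 and Irf5, Irf2bp1 rose (0.53 ± 0.064). Irf4 was at 0.159 ± 0.0150 CPM with vehicle and 0.744 ± 0.145 CPM with melatonin, and passed the filter on low counts only through the melatonin group, so no test is given for it.

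Other interferon-induced genes were lower as well. Of 68 such genes outside the set, 39 fell, where 18.5% of all tested genes did, and the median was -1.20. None rose (0 at an unadjusted p under 0.05, and at most 1 with any other setting), where 18.1% of all tested genes did. Without melatonin replicate 3, 24 fell, where 2816 of all 16833 tested genes did. The genes with the smallest p were Ifitm1 (13.3 ± 1.31 to 2.38 ± 0.449 CPM, -2.48 ± 0.15), Casp4 (-1.46 ± 0.16) and Plac8 (-1.85 ± 0.23). The largest falls were those of the chemokine gene Cxcl11 (18.3 ± 11.2 to 1.13 ± 0.708 CPM, -4.01 ± 0.59), Phf11b (-2.82 ± 0.63) and Ifitm1. Vehicle replicate 3 was the highest vehicle library for 63 of the 68 and melatonin replicate 4 the lowest melatonin library for 61. The medians relative to the vehicle mean were -0.67, -0.90, -1.39 and -2.16 in melatonin replicates 1 to 4, and 0.46 in vehicle replicate 3.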

How the data were processed

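RNA from 8 cultures of mouse fibro-adipogenic progenitors was sequenced, 4 with vehicle and 4 with melatonin. The authors deposited a table of raw counts for 20781 Ensembl genes. Columns prefixed as controls were read as vehicle, the only other group. The genome build was mm10, and the aligner was HISAT2 2.0, the submitters' processing notes say. Those notes also list DESeq2 1.12.4, StringTie 1.3.3b, Trimmomatic 0.36, FastQC 0.11.2 and bedtools 2.26.0. Not given in the sources used here is how reads were counted, and whether by strand, so overlapping antisense genes may be mixed. The labels' extraction protocol names another muscle (longissimus dorsi) than their tissue fields, which was left unresolved.

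Symbols and exon lengths came from GENCODE M21, in which 61 IDs were not found. Genes were kept with filterByExpr (16565 tested, 4216 not), scaled with TMM (factors 0.916 to 1.08) and compared by edgeR's robust quasi-likelihood test (version 4.0.16), group as the only term, with Benjamini-Hochberg adjustment over all tested genes and a threshold of 0.05. A standard error is the fold change divided by the square root of F. Spread was taken on log2 CPM with a prior count of 2. The fit was repeated with other scalings and filters, with a block for replicate numbers, without each library in turn, and with limma-voom (limma 3.58.1, with and without sample weights) and DESeq2 1.42.0 in place of edgeR. Within-group pairs of libraries differed by more than sampling noise (chi-square of 25.4 to 81.1 per gene). The labels call the replicates biological. Limits at a count of 0 use 3 counts and cover counting error only.

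Genes were named by role: every member, the called genes of each short pathway list and, of the 68 other interferon-induced genes, the 3 with the smallest p and the 3 with the largest fall. Ifit1bl1 and Ifit1bl2 of those 68 were named beside the IFIT members. Genes that did not pass are named beside them after their values were seen. Some listed genes are not reported here by name. The members and lists were chosen with earlier results of these data known.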

Additional observations from a re-analysis of the deposited data

Results flagged for a closer look

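In 7 of 84 groups of 4 libraries (42 members in 2 groups), a library lay far from the other 3 by Dixon's criterion on log2 CPM, where chance flags about 1 in 20. All 7 were vehicle replicate 3. There Isg15 was at 443 CPM, Oas3 at 18.8 CPM, Irf7 at 189 CPM, Usp18 at 278 CPM, Ifi44 at 134 CPM, Gbp2 at 732 CPM and Ifi35 at 125 CPM, each above the other vehicle libraries. The genes share that library, so these are not separate events. No melatonin library met the criterion for any member.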

How the results depend on the processing

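All 42 members stayed below 0 under 16 of 17 other settings. The exception, chosen after seeing the data, left out vehicle replicate 3 and melatonin replicate 4, where Ifit2 was at 0.11. The count of members lower, 19, was 29 with DESeq2, 13 with the replicate number as a block, 16 with library totals alone and 11 to 25 with 1 library left out. With 1 library left out the median fold change ran from -1.52 to -0.89, and without vehicle replicate 3 and melatonin replicate 4 it was -0.71. The count of other interferon-induced genes lower, 39, ran from 24 to 44 with 1 library left out and was 53 with DESeq2. The median SD of the members ran from 0.18 to 0.39 (vehicle) and from 0.47 to 1.07 (melatonin) with 1 library left out. Library totals alone moved the median of all genes from 0.01 to 0.17 and the higher share of all calls from 49.4% to 69.5% (5099 higher, 2237 lower). Over all tested genes, same-numbered libraries did not deviate together (correlations of -0.0461 to 0.0354, beside -0.12 to 0.17 for differently numbered ones). With 4 libraries a group, that check cannot decide whether the numbers pair samples. With the block 4942 of all genes were called, against 6054. The causes of these shifts were not tested. Depth limits the interferon genes Ifnb1 and Ifna4, with 16 and 0 counts in all melatonin libraries together.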
